A study of Mus musculus with 12 samples.

Results

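Bone morphogenetic proteins (BMPs) and the genes that answer them were followed in the sensory epithelium of the postnatal mouse cochlea. The genes are the ligands Bmp2, Bmp4, Bmp6 and Bmp7, the response genes Id1, Id2, Id3 and Id4, and the inhibitory Smads Smad6 and Smad7. They were taken from the table of normalized counts by their symbols, and all 10 were found among 27754 genes. The rule itself uses no measured value.

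RNA sequencing was performed on hair cells and supporting cells, freed from mesenchyme and neurons with Cell Recovery Solution, from both ears of single pups of a Mixed C57BL/6 and CD1 background. Treated pups carried Sox2-CreER/+ and β-catenin-flox(Exon3)/+, so that tamoxifen removes exon 3 of Ctnnb1 and stabilizes β-catenin in cells in which the Sox2 promoter drives the Cre. Untreated littermates also carried β-catenin-flox(Exon3)/+ and also received tamoxifen, but had no Cre. Tamoxifen reached the pups through the mother, injected on postnatal day 1 (P1 groups) or day 4 (P4 groups), and tissue was harvested 72 h later, on postnatal day 4 or day 7. Each library came from 1 pup. At P1 there were 3 treated and 3 untreated libraries, and at P4 there were 3 untreated libraries but only 2 treated ones, replicates 1 and 3. Replicate 2 of P4 treated pups was not used here. The design compares treated with untreated pups at each age, and the ages with and without treatment. All treated pups carried the Sox2-CreER allele and no untreated pup did. Effects of the allele and of stabilized β-catenin therefore cannot be told apart. The authors name lower Sox2 in such knock-in alleles as a limitation.

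BMP ligands bind pairs of type I and type II serine/threonine kinase receptors, which phosphorylate SMAD1, SMAD5 and SMAD9. These bind SMAD4, enter the nucleus and activate the Id genes, whose products lack a DNA-binding domain and hold E proteins away from partners such as ATOH1, the factor that starts hair cell differentiation. Smad6 and Smad7 are induced by the same signal and inhibit it. In the developing cochlea BMP4 is known from the outer side of the duct, where BMP signaling helps to set apart sensory and non-sensory domains.

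The libraries had sums of 41.2 to 44.2 M normalized counts. Normalized counts of Ctnnb1, which include transcripts with and without exon 3, were 19820 to 31167 over all libraries, and no difference by treatment was called (log2 fold change 0.16 at P1, adjusted p = 0.59 by limma; 0.13 at P4, adjusted p = 0.668). Lgr5, a receptor gene induced by Wnt, had 8822 to 9331 normalized counts in P1 treated and 2041 to 2727 in P1 untreated libraries. At P4 it had 7306 and 6352 against 2763 to 3934. Other Wnt response genes were mixed. Of 13 tested, 3 were called higher by treatment at P1, Lgr5 among them, against 0.353% of all genes. Their log2 fold changes were above 0 in 6 and below it in 7. At P4 none of the 13 was called, with 7 above 0 and 6 below. Sox2 had 4930 to 6006 normalized counts in P1 treated and 8042 to 10170 in P1 untreated libraries, and was called lower. At P4 it had 7993 and 7577 against 10101 to 10485 and was not called. All 12 hair cell and 12 supporting cell markers were above 0 in every library. Of 14 mesenchyme markers, all were also above 0 in every library. Xist, made in female cells, was 13 to 26 in P1 treated libraries and 4180 and 3268 in P4 treated libraries, so that age and sex cannot be told apart among treated pups. In untreated libraries it was 16, 3030 and 2794 at P1 and 32 to 39 at P4. At P4, therefore, treatment and sex cannot be told apart either, which touches the comparison by treatment there and the interaction. At P1 all treated libraries were low in Xist and 2 of 3 untreated ones were high.

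Levels of different genes were set side by side only per length, as normalized counts per kb of the longest coding transcript in GENCODE M21. Among ligands, Bmp7 was the highest per kb in all 6 P1 libraries and Bmp6 in all 5 P4 libraries. Bmp7 made 47.1%, 50.3% and 48.5% of the per-kb sum of the 4 ligands in P1 treated libraries and 46.3%, 44.4% and 41.9% in P1 untreated libraries. At P4 it made 26.1% and 28.2% in treated and 24.6%, 22.4% and 22.9% in untreated libraries. Bmp6 took the opposite course, with 10.7% to 21.1% of the sum at P1 and 40.8% to 52.5% at P4. Bmp4 held 20.6% to 40.2% and Bmp2 only 0.99% to 3.37% over the 11 libraries.

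The plot of shares shows a lower share of Bmp7 and a higher share of Bmp6 at P4. A share also falls when the sum rises. The mean ligand sum per kb was 6091 in P1 untreated and 9191 in P4 untreated libraries. There Bmp7 had means of 2696 and 2136 per kb, and Bmp6 of 952 and 4372. Differences with age in the makeup of the Id genes were smaller. Id2 made 30.6% to 33.3% of the per-kb sum of the 4 Id genes in P1 libraries and 36.9% to 42.7% in P4 libraries. Id3 made 44.4% to 50.4% at P1 and 39.4% to 43.4% at P4, and Id1 14.02% to 19.1% and 12.2% to 13.4%. The shares of these 3 genes did not overlap between the ages, whereas those of Id4 did, with 3.81% to 6.49% and 5.39% to 7.26%. Id3 led in 9 libraries and Id2 in P4 untreated replicates 2 and 3. Smad6 made 79.4% to 90.5% of the sum of the inhibitory Smads, and Smad7 the rest. In untreated libraries the mean levels per kb of Id1 and Id3 were higher at P4 than at P1, although their shares were lower. All shares rest on 1 transcript length per gene and are given as a description.

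**Figure D1:**
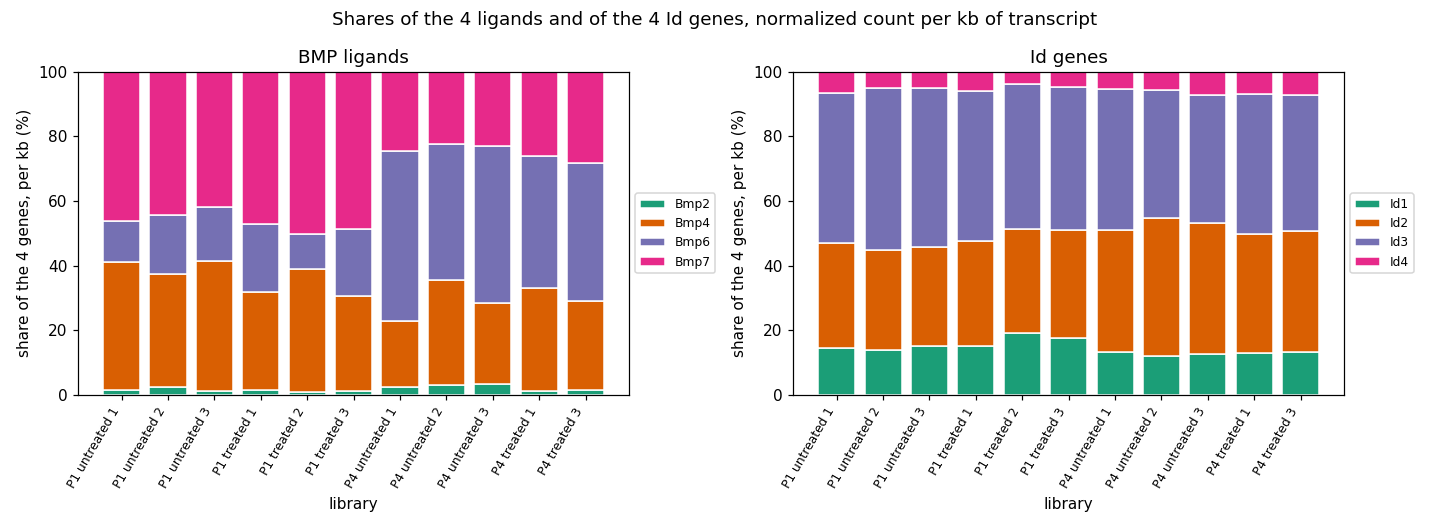
Stacked bars give, for each of the 11 libraries (x axis), the share (y axis, %) of each of the 4 BMP ligands (left) and 4 Id genes (right) in the family's sum of normalized counts per kb. Bmp6 rises from 10.7% to 21.1% in P1 libraries to 40.8% to 52.5% in P4 libraries, while Id2 goes from 30.6% to 33.3% to 36.9% to 42.7%.

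Between the ages, untreated pups differed in 6 of the 10 genes. Lower at P1 were 5 of them (the ligands Bmp2 and Bmp6, the response genes Id2 and Id4, and Smad6), and Bmp7 was higher. Calls needed an adjusted p below 0.05 by limma and one group more than 25% above the other. Of all 18400 genes tested, 19.9% were called in this comparison, 10.5% higher and 9.38% lower at P1, against 6 of 10 here. In 7 of the 10 genes the P1 and P4 untreated libraries did not overlap, as in 41.3% of all genes. The median log2 fold change of the 10 genes was −0.55 and that of all genes 0.02. In bulk tissue, fewer cells of a type and less RNA per cell cannot be told apart.

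Bmp6, which encodes a ligand of the BMP7 subgroup, showed the largest difference among the 10. It had 2903, 3810 and 3551 normalized counts in P1 untreated and 14907, 13677 and 18542 in P4 untreated libraries. The means were 3421 ± 467 (SD, n = 3) and 15709 ± 2530 (SD, n = 3), and the lowest P4 library lay far above the highest P1 library. The level at P1 was 4.58-fold lower (log2 fold change −2.20, standard error 0.247, adjusted p = 0.000386 by limma). In treated pups Bmp6 had 5498, 2868 and 6145 normalized counts at P1 and 16168 and 18192 at P4, again without overlap. There it was 3.73-fold lower at P1 (log2 fold change −1.90, standard error 0.276, adjusted p = 0.00377). Bmp6 lies at chr13:38345107-38500302 (+ strand, GRCm38), and 224 of its 3900 exonic bases are shared with Txndc5 on the other strand, which the library kit cannot separate. Txndc5 had a log2 fold change of −0.12 in both age comparisons (adjusted p = 0.32 and 0.435).

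Bmp2, of the other ligand subgroup with Bmp4, was the least abundant ligand. In untreated libraries it had 327, 531 and 257 normalized counts at P1 and 656, 1015 and 1268 at P4. It was 2.66-fold lower at P1 (log2 fold change −1.41, standard error 0.314, adjusted p = 0.0106), without overlap of the groups. In treated libraries, with 417, 263 and 385 at P1 and 429 and 583 at P4, the log2 fold change was −0.52 (95% interval −1.30 to 0.26, adjusted p = 0.372).

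No age difference of Bmp4 was detected in untreated pups. Its normalized counts were 5303, 4226 and 4946 at P1 and 3365, 6097 and 5442 at P4, and the P4 libraries spanned those of P1. The log2 fold change was 0.00, with a 95% interval of −0.44 to 0.43. In treated pups it had 4506, 5865 and 4910 normalized counts at P1 and 7257 and 6774 at P4 (log2 fold change −0.47, adjusted p = 0.195), with the P4 libraries above all P1 libraries. Bmp4 shares 89 of 2248 exonic bases with Gm15217 on the other strand, whose mean was 9.5 normalized counts.

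Bmp7 was the one gene of the 10 called higher at P1. Untreated libraries had 10989, 9536 and 9163 normalized counts at P1 and 7143, 7477 and 8897 at P4, so that the groups lay apart by a small margin. The fold change was 1.26 (log2 0.34, standard error 0.108, adjusted p = 0.0483), just past both thresholds. With the replicate number as a block the adjusted p was 0.065 and the call was lost. It was also lost in 9 of the 11 fits that left out 1 library, with adjusted p from 0.0524 to 0.161. In treated libraries, with 12515, 13769 and 14523 at P1 and 10569 and 12286 at P4, the log2 fold change was 0.25 (adjusted p = 0.206).

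**Figure D2:**
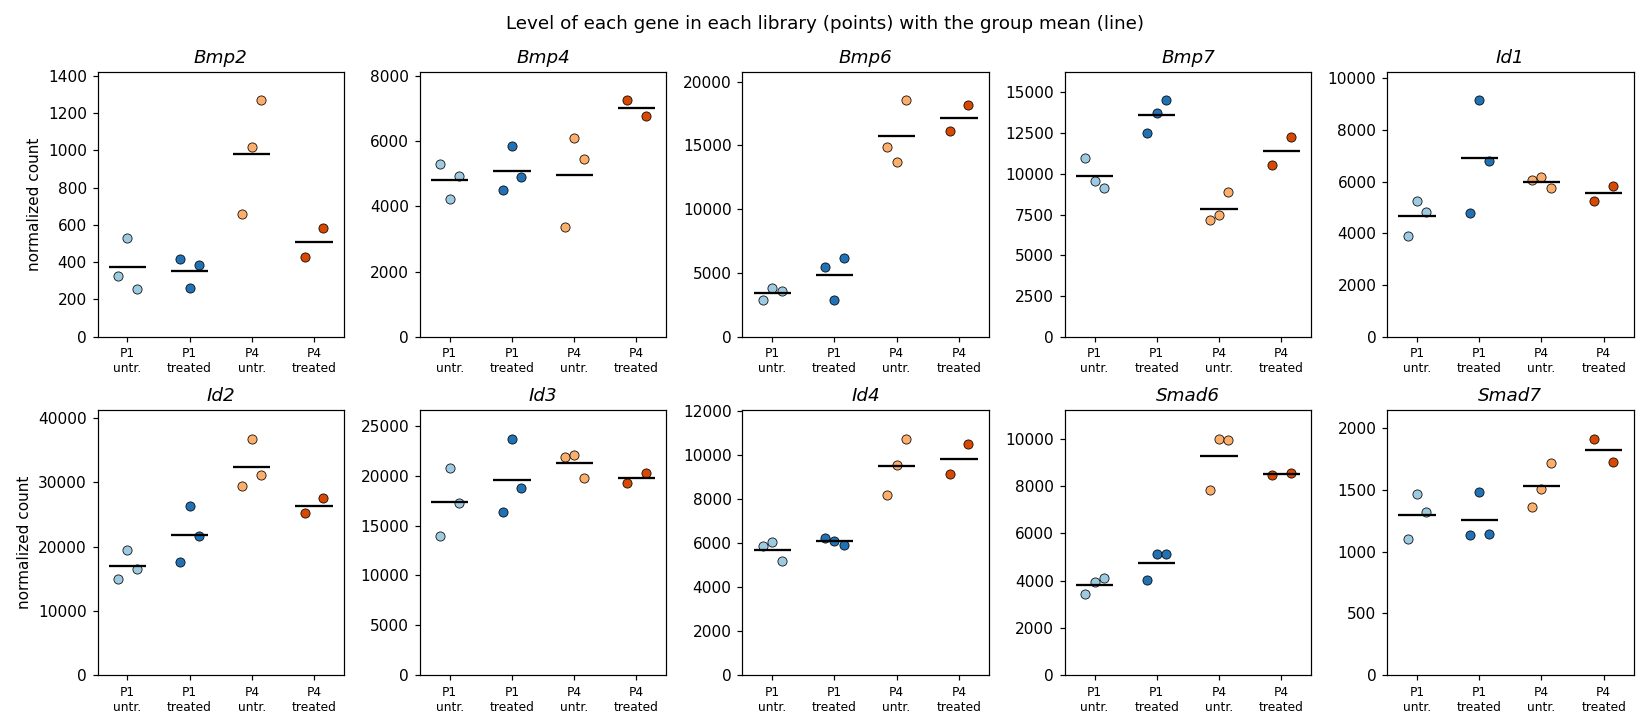
Normalized counts (y axis, from 0) of each of the 10 genes in each library (points), with the mean of each group (line), for P1 untreated, P1 treated, P4 untreated and P4 treated libraries. Bmp6, Id4 and Smad6 stand higher in all P4 libraries than in any P1 library, and Bmp7 stands higher in treated than in untreated libraries of the same age.

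Among the response genes, Id2 and Id4 differed with age in untreated pups, while Id1 and Id3 were not called. Id2, expressed in many progenitors as an inhibitor of differentiation, had 14995, 19509 and 16539 normalized counts at P1 and 29455, 36816 and 31104 at P4. It was 1.91-fold lower at P1 (log2 fold change −0.93, standard error 0.149, adjusted p = 0.00212). In treated pups the Id2 groups overlapped, with 17618, 26303 and 21658 at P1 and 25239 and 27532 at P4 (log2 fold change −0.29, adjusted p = 0.294).

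Id4, the family member known best from neural precursors, was lower at P1 with and without treatment. Untreated libraries had 5846, 6039 and 5174 normalized counts at P1 and 8180, 9521 and 10730 at P4, a 1.66-fold difference (log2 fold change −0.73, standard error 0.104, adjusted p = 0.00122). Treated libraries had 6230, 6071 and 5905 at P1 and 9129 and 10502 at P4, a 1.61-fold difference (log2 fold change −0.69, standard error 0.117, adjusted p = 0.00658). The lowest P4 library of either kind stood above all P1 libraries. Id4 shares 82 of its 3849 exonic bases with A330033J07Rik and 171 with Gm49291, both on the other strand. A330033J07Rik, with a mean of 124.2 normalized counts, was also lower at P1 (log2 fold change −1.28, adjusted p = 0.0182, in untreated libraries), and its part in the result for Id4 was not tested.

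Id1, often used as a readout of BMP signaling, had 3902, 5251 and 4830 normalized counts in P1 untreated and 6063, 6169 and 5756 in P4 untreated libraries. The P1 libraries all lay below the P4 libraries, but the difference did not pass the test (log2 fold change −0.37, standard error 0.196, adjusted p = 0.202). Id3, coexpressed with Id1 in many tissues, had 13914, 20797 and 17280 at P1 and 21894, 22045 and 19786 at P4 (log2 fold change −0.31, adjusted p = 0.18), with overlap. In treated pups the log2 fold changes between the ages were 0.27 for Id1 and −0.03 for Id3 (adjusted p = 0.468 and 0.939).

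Smad6, an inhibitor selective for BMP signaling, had the smallest adjusted p of the 10 genes in this comparison. In untreated libraries it had 3446, 3935 and 4089 normalized counts at P1 and 7826, 10011 and 9941 at P4, and was 2.41-fold lower at P1 (log2 fold change −1.27, standard error 0.123, adjusted p = 0.000184). In treated libraries it had 4043, 5109 and 5125 at P1 and 8483 and 8560 at P4, and was 1.80-fold lower at P1 (log2 fold change −0.85, standard error 0.137, adjusted p = 0.00556). All 5 P4 libraries stood above all 6 P1 libraries.

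Smad7, which inhibits both TGFβ and BMP signaling, was not called between the ages. Untreated libraries had 1100, 1470 and 1322 normalized counts at P1 and 1360, 1506 and 1722 at P4 (log2 fold change −0.24, adjusted p = 0.265). Treated libraries had 1139, 1481 and 1142 at P1 and 1917 and 1723 at P4, without overlap (log2 fold change −0.55, standard error 0.162, adjusted p = 0.0555). That difference passed without P1 treated replicate 2 (log2 fold change −0.67, adjusted p = 0.0259).

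In the treated comparison 3 of the 10 genes were called between the ages, Bmp6, Id4 and Smad6, all lower at P1. Of all genes tested, 11.1% were called there, 5.63% higher and 5.42% lower at P1, and in 7 of the 10 genes, against 43.1% of all genes, the libraries did not overlap. Without P4 treated replicate 3 only the call of Bmp6 was left (adjusted p = 0.0789 for Id4 and 0.0542 for Smad6), in a fit that called 1.93% of all genes. With the log2 level of Xist as a covariate none of the 3 was called (adjusted p = 0.192 to 0.267), and calls over all genes fell from 11.1% to 0.152%, or 28 genes. Xist and age run together in these 5 libraries. In the untreated comparison, calls for Bmp2, Bmp6, Id2, Id4 and Smad6 kept their side of the threshold in all settings tried.

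**Figure D3:**
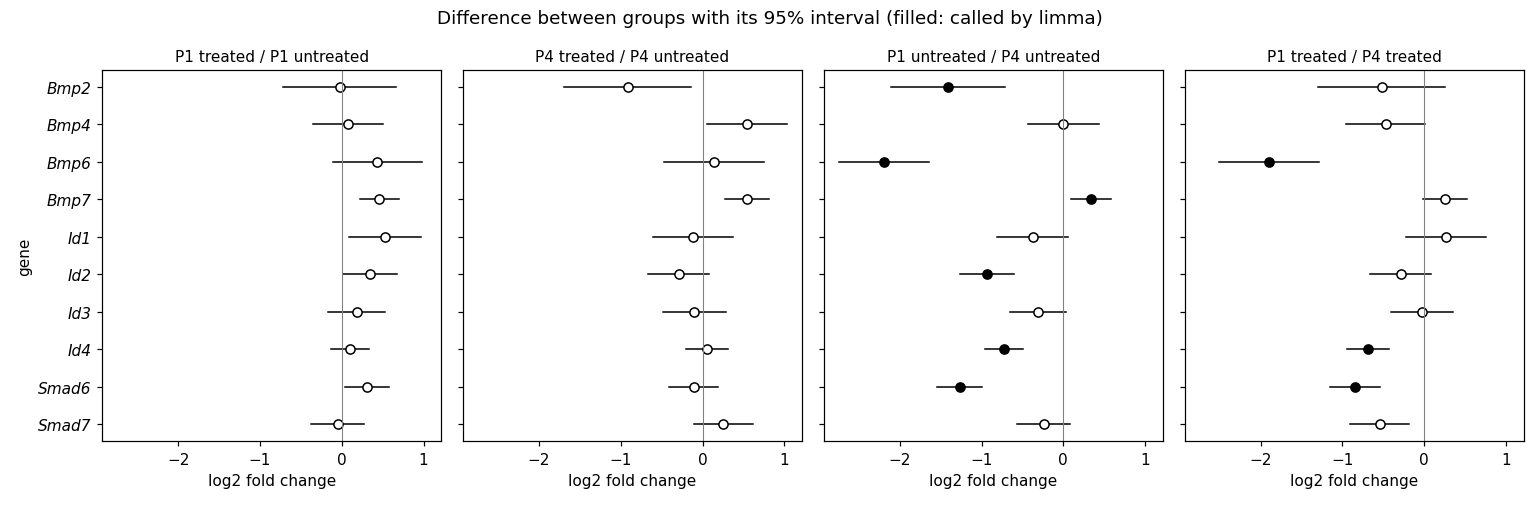
Log2 fold change (x axis) of each of the 10 genes (y axis) in the 4 comparisons, with its 95% interval from limma, and filled points for called genes. In the 2 comparisons of treated with untreated libraries no point is filled, although Bmp7 lies at 0.46 and 0.55 with intervals above 0, and in the 2 comparisons of P1 with P4 libraries Bmp6, Id4 and Smad6 are filled on the negative side.

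Promoter sequence from RefSeq (GRCm38.p6) was at hand for 6 of the 10 genes. It is shown for Smad6 and Id4, lower at P1 with and without treatment, and for Bmp4, for which no age difference was called. Bmp6, also lower at P1 with and without treatment, was searched but is not printed. The windows run from 250 bases before to 20 bases after the start of the transcript, 5′ to 3′ on the gene's own strand. They lie at chr9:64022040-64022309 (− strand) for Smad6, chr13:48260866-48261135 (+ strand) for Id4 and chr14:46390650-46390919 (− strand) for Bmp4. Capitals mark the matches described after the sequences.
Smad6: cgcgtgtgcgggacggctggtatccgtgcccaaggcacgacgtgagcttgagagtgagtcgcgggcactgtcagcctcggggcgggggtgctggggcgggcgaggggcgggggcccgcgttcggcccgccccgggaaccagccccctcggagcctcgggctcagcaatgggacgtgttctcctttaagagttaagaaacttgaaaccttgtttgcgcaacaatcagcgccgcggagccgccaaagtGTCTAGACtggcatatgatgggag
Id4: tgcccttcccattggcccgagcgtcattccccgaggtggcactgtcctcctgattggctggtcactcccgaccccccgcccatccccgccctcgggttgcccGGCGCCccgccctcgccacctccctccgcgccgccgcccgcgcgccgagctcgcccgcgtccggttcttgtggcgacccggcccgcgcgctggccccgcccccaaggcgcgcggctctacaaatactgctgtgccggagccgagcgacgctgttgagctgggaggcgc
Bmp4: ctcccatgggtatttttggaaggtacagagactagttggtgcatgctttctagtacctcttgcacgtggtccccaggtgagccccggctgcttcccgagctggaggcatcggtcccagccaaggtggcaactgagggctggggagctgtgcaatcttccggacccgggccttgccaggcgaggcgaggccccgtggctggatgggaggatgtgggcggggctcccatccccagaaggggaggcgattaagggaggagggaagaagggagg

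Both strands were searched for 3 short motifs, namely the SMAD palindrome GTCTAGAC, the GC-rich SMAD1/5 motif GGCGCC and the TCF/LEF motif CTTTGAT. No match overlapped another. GTCTAGAC was found in the window of Smad6, where it spans the start of the transcript from position −4. Of 32851 promoter windows of the same length, 60 (0.183%) hold it. GGCGCC was found in the windows of Id4 (from position −148) and Id2 (from −231), and 10.4% of all windows hold it. CTTTGAT, held by 3.5% of all windows, was in none of the 6. The windows of Bmp6, Bmp4 and Id3 held none of the 3 motifs, although Bmp6 had the largest age difference. A match of letters is no measure of binding.

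Treatment from P1 onward changed none of the 10 genes past the thresholds. Of all genes tested, 0.353% were called, 0.261% higher and 0.0924% lower in treated pups. By limma at an unadjusted p under 0.05, 4 of the 10 were higher in treated pups (Bmp7, Id1, Id2 and Smad6) and none lower. Their log2 fold changes lay between 0.31 and 0.53. Treated and untreated libraries lay apart in 1 of the 10 genes, Bmp7, against 15.3% of all genes. The median of the 10 was 0.25 and that of all genes 0.00. With DESeq2, the authors reported more genes changed by treatment at each age than were called here, and named Bmp7 among altered targets. A gene not called here may therefore still differ.

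Bmp7 had 12515, 13769 and 14523 normalized counts in P1 treated and 10989, 9536 and 9163 in P1 untreated libraries. The means were 13602 ± 1014 (SD, n = 3) and 9896 ± 965 (SD, n = 3), a fold change of 1.38 (log2 0.46, standard error 0.108, 95% interval 0.22 to 0.70, adjusted p = 0.126 by limma). The adjusted p was 0.0625 without P1 treated replicate 1, 0.191 without replicate 2 and 0.381 without replicate 3.

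Id1 had 4778, 9151 and 6787 normalized counts in P1 treated libraries, against 3902 to 5251 in P1 untreated libraries. The log2 fold change was 0.53 (95% interval 0.09 to 0.96, adjusted p = 0.312), with a treated library inside the untreated range. Without P1 treated replicate 1, the lowest of the 3, it was 0.77 and passed the test (adjusted p = 0.0389), in a fit that called 2.02% of all genes. Without replicate 2, the highest, it was 0.30 (adjusted p = 0.474). The same replicate 2 was the highest of the 3 in Id2 (26303) and Id3 (23750) and the lowest in Bmp2 (263) and Bmp6 (2868). It also had the highest mean log2 level of 12 strial and melanocyte markers. This was 9.30, against 6.76 and 6.80 in the other P1 treated libraries and 6.52 to 7.98 in the remaining 8. By summed normalized counts it was not the highest, with 71411 against 106773 in P1 treated replicate 3 and 71516 in P4 treated replicate 3. Kcnj10, of the same list, was lower in it (287) than in any other library. Dct, a melanocyte enzyme, was at 1590 normalized counts in it and at 0 to 261 elsewhere. The part of these cells in the Id levels was not tested.

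For the other genes at P1, the 95% intervals of the log2 fold change ran from −0.72 to 0.67 for Bmp2, −0.36 to 0.51 for Bmp4 and −0.11 to 0.98 for Bmp6. They ran from −0.16 to 0.53 for Id3, −0.13 to 0.33 for Id4 and −0.37 to 0.27 for Smad7. Changes of 2-fold in either direction lay outside all 6 of these intervals. Smad6 had 4043 to 5125 in treated against 3446 to 4089 normalized counts in untreated libraries (log2 fold change 0.31, adjusted p = 0.345).

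With tamoxifen at P4 again none of the 10 genes was called, and 0.0543% of all genes were, 0.0326% higher and 0.0217% lower in treated pups. Both P4 treated libraries lay outside the untreated range in 5 genes, namely Bmp4, Bmp7 and Smad7 above it and Bmp2 and Id2 below it. With 2 against 3 libraries this was so for 33.5% of all genes. At an unadjusted p under 0.05, Bmp4 and Bmp7 were higher and Bmp2 was lower.

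Bmp7 had 10569 and 12286 normalized counts in P4 treated against 7143, 7477 and 8897 in P4 untreated libraries. The fold change was 1.46 (log2 0.55, standard error 0.121, 95% interval 0.28 to 0.81, adjusted p = 0.223 by limma). Bmp2 had 429 and 583 against 656, 1015 and 1268, or 1.89-fold less in treated libraries (log2 fold change −0.92, adjusted p = 0.361). Bmp4 had 7257 and 6774 against 3365, 6097 and 5442, with a log2 fold change of 0.54 (adjusted p = 0.386) that was 0.28 without P4 untreated replicate 1, the lowest library. Id2 had 25239 and 27532 against 29455, 36816 and 31104 (log2 fold change −0.29, adjusted p = 0.522), and Smad7 1917 and 1723 against 1360, 1506 and 1722 (0.26, adjusted p = 0.565).

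The remaining genes overlapped between P4 treated and untreated libraries. Bmp6, Id1, Id3, Id4 and Smad6 had log2 fold changes of 0.14, −0.11, −0.10, 0.06 and −0.11. The widest of their 95% intervals, that of Bmp6, ran from −0.47 to 0.75.

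Whether treatment acted differently at the ages was tested by the interaction, the log2 fold change by treatment at P1 minus that at P4. None of the 10 genes was called, and 0% of all genes were. By limma at an unadjusted p under 0.05, 500 of all genes were above 0 and 567 below it, as were 2 of the 10 above it, Id2 (0.64, standard error 0.224, adjusted p = 0.82) and Smad6 (0.42, standard error 0.184, adjusted p = 0.844). Id1 followed with 0.64 (95% interval −0.01 to 1.29, adjusted p = 0.856). For these 3 genes treated libraries had the higher mean at P1 and the lower mean at P4. For Bmp7 the interaction was −0.09, with a 95% interval of −0.44 to 0.27.

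Since Bmp7 lay higher in treated pups at both ages, the mean of both treatment effects was also tested. This contrast was chosen after the values had been seen. Bmp7 was 1.42-fold higher in treated libraries (log2 0.50, standard error 0.0809, 95% interval 0.32 to 0.68, adjusted p = 0.0254 by limma) and was the only one of the 10 genes called, where 0.674% of all genes were. All 5 treated libraries lay above all untreated libraries of their own age. So did the summed normalized counts of 12 supporting cell markers. They were 145219 to 154533 in P1 treated and 107232 to 136042 in P1 untreated libraries. At P4 they were 188602 to 190517 against 160689 to 171108. By mean log2 level of the 12 markers the P1 groups overlapped, with 12.81 to 12.90 in treated and 12.48 to 12.87 in untreated libraries. At P4 they did not, with 13.04 and 13.05 against 12.85 to 12.98. By log2 fold change, 9 of the 12 were higher and 3 lower in treated libraries at P1, and 8 and 4 at P4. Gjb2, Jag1, Sox9 and Hey2 lay above all untreated libraries of their age in every treated library, and Sox2 and Slc1a3 below them. The part of these markers in the result for Bmp7 was not tested. The call was lost in 6 of 11 fits that left out 1 library (adjusted p = 0.0529 to 0.118), with values of 0.45 to 0.56 in these, and with the replicate number as a block (0.50, adjusted p = 0.0671). Averaged over treatments in the same way, P1 against P4, Smad7 joined Bmp2, Bmp6, Id2, Id4 and Smad6 as lower at P1 (log2 fold change −0.39, adjusted p = 0.0196), where 25.1% of all genes were called.

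Beyond these 10 genes, 75 genes of the BMP pathway were listed by role, of which 73 were in the table and 60 had a mean of at least 10 normalized counts. No member of these lists was called by treatment at P1 or at P4. At an unadjusted p under 0.05, limma gave 4 higher and 10 lower at P1, and 5 higher and 5 lower at P4. Without P1 treated replicate 1, 7 were called at P1, in a fit that called 2.02% of all genes against 0.353% with it. In the average of both treatment effects, chosen after values were seen, 1 of the 60 was called, or 1.67% against 0.674% of all genes. It was the BMP antagonist Nbl1, 2.38-fold lower in treated libraries (adjusted p = 0.0377 by limma). Tll1, a protease that cleaves the BMP antagonist chordin, came closest at P1, with 60, 29 and 19 normalized counts in treated and 154, 211 and 143 in untreated libraries (log2 fold change −2.34, adjusted p = 0.0596). At P4 it was Nbl1, with 1187 and 878 against 2739, 3307 and 1889 (log2 fold change −1.33, adjusted p = 0.262). Of all BMP pathway genes, Smad5 had the largest interaction by its test statistic (−0.93, adjusted p = 0.768).

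Between the ages in untreated pups, 16 of the 60 were called, 7 higher and 9 lower at P1, which is 26.7% against 19.9% of all genes. Without P1 untreated replicate 3 the number was 10, with 13.3% of all genes called. The median log2 fold change of the 60 was 0.00. Of the other ligands, Gdf6 was lower at P1, with 387, 1579 and 624 against 7485, 8640 and 10350 normalized counts (log2 fold change −3.59, adjusted p = 0.000343), and Bmp5 was higher. In the signal-transducing Smads the directions were mixed. Smad5 had 2272, 2244 and 2409 at P1 and 1203, 1308 and 1045 at P4 (log2 fold change 0.97, adjusted p = 0.00227), whereas Smad9 was lower at P1 (−1.16, adjusted p = 0.0223). Smad1 and the common partner Smad4 were not called (log2 fold changes −0.18 and 0.03).

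None of the 12 receptors and coreceptors tested was called in either age comparison, against 19.9% of all genes in untreated and 11.1% in treated pups. The type I receptor gene Bmpr1a had 4611 to 8147 normalized counts, Bmpr1b 639 to 1656 and Acvr1 597 to 987 over all libraries, and the type II receptor gene Bmpr2 had 109 to 238. Among secreted regulators, 5 of 18 were called in untreated pups, or 27.8% against 19.9% of all genes. Fstl1, a secreted glycoprotein that binds BMPs, was higher at P1, with 204622 to 261529 against 79390 to 125420 normalized counts (log2 fold change 1.22, adjusted p = 0.00143). Tll2 (1.74, adjusted p = 0.00361) and Tll1 (1.40, adjusted p = 0.0423) were also higher, whereas the antagonist Chrdl1 (−1.02, adjusted p = 0.00048) and Kcp were lower. The antagonists Nog, Chrd and Fst and the decoy receptor Bambi were not called, with 62 to 258, 207 to 619, 632 to 4271 and 1517 to 5441 normalized counts over all libraries. Grem1 stayed at 5 to 20.

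Of 12 further genes that BMPs can induce, 6 were called in untreated pups, 5 of them lower at P1. That is 50%, against 19.9% of all genes called and 9.38% called lower at P1. Gata3, a transcription factor needed for the development of the sensory epithelium, had 28715, 36642 and 29235 at P1 and 73263, 70026 and 89187 at P4 (log2 fold change −1.30, adjusted p = 0.000151). The homeobox gene Dlx5 had 22 to 38 against 185 to 459 (−3.32, adjusted p = 0.00026). Atoh8, Gata2 and Hey1 were the others that were lower, and Dlx3 was higher.

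In treated pups 10 of the 60 were called between the ages, 1 higher and 9 lower at P1, or 16.7% against 11.1% of all genes. Only 2 were called without P4 treated replicate 1 or without replicate 3, where the calls over all genes fell to 2.9% and 1.93%. There were 6 without P4 untreated replicate 1 or 3 (10.2% and 9.88% of all genes), and none with Xist as a covariate (0.152%). Fstl1 was higher at P1 (log2 fold change 0.84, adjusted p = 0.0258). Lower were Gata3 (−0.90, adjusted p = 0.00386), Gdf6 (−2.88, adjusted p = 0.00439), Dlx5 (−2.02, adjusted p = 0.0102), Atoh8 (−1.20, adjusted p = 0.0126), Gata2, Hey1, Smad9, Chrdl1 and Smad1. The median log2 fold change of the 60 was −0.07.

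**Figure D4:**
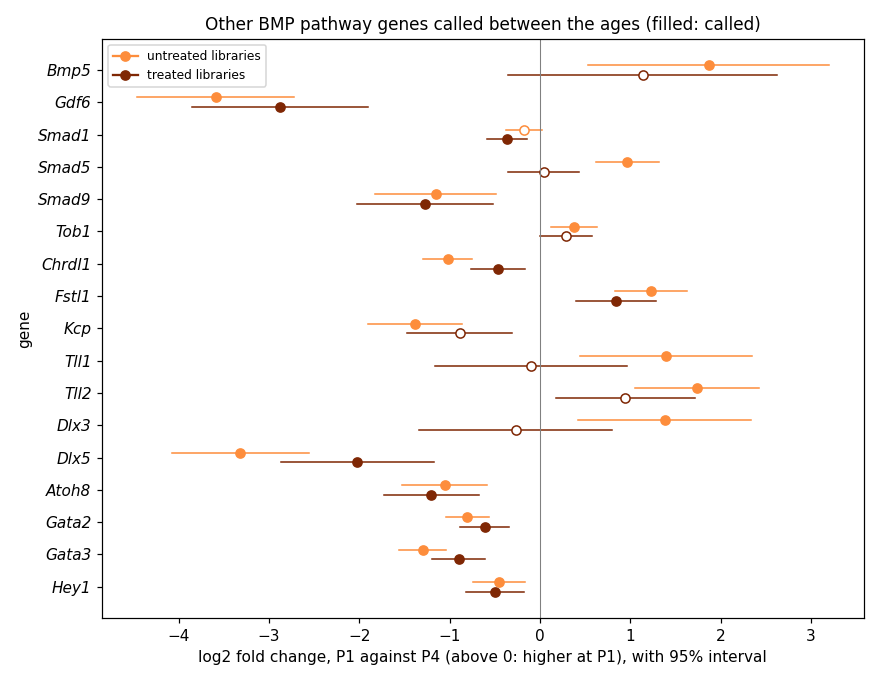
Log2 fold change between P1 and P4 (x axis, above 0 when higher at P1), with its 95% interval, of the BMP pathway genes (y axis) called in untreated or in treated libraries, with filled points where called. Gdf6 and Dlx5 lie farthest below 0 in both kinds of library, and Bmp5, Smad5, Tob1, Tll1, Tll2 and Dlx3 are filled above 0 in untreated libraries alone, a difference that the interaction did not call.

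The E proteins, which Id proteins bind, and other helix-loop-helix factors were counted as well. Of 9 tested, 2 were called in each age comparison, or 22.2% against 19.9% of all genes in untreated and 11.1% in treated pups, and none by treatment. Atoh1 had 397, 378 and 244 normalized counts in P1 untreated and 182, 143 and 129 in P4 untreated libraries (log2 fold change 1.14, adjusted p = 0.0127). In treated libraries it had 278, 515 and 348 at P1 and 143 and 138 at P4 (1.38, adjusted p = 0.0168). Atoh1 was thus higher at the age at which Id2 in untreated and Id4 in both kinds of pups were lower, while Id1 and Id3 were not called. A link between Atoh1 and the Id genes was not tested. Tal1, a factor of blood and endothelial cells, was also higher at P1 (1.65, adjusted p = 0.0464, and 2.12, adjusted p = 0.0419), at 81 normalized counts or less. The E protein genes Tcf3, Tcf4 and Tcf12 had 7112 to 9566, 3008 to 4753 and 2021 to 3223 normalized counts over all libraries and were not called. In the neighbouring TGFβ and activin arm 1 of 17 genes was called in untreated pups, or 5.88% against 19.9% of all genes, and none in treated pups. The gene called was Inhbb, an activin subunit that was higher at P1 (1.20, adjusted p = 0.0279 by limma). By treatment none of the 17 was called, and Smad3 had the largest interaction of this arm and the partner list by its test statistic (−0.63, adjusted p = 0.856). Twist1, in the list of partners, had the largest statistic by treatment at both ages (−1.81 at P1 and −1.77 at P4, adjusted p = 0.229 and 0.333).

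The genes most like each called gene over the 11 libraries were found by the root mean square (RMS) difference of centred log2 levels. For Smad6 they were Pgm2l1 (0.102), Hspa2 (0.148) and Gata3 (0.15), where the RMS of Smad6 about its own mean was 0.562 and the median gene was at 0.644. For Bmp6 they were Sept4 (0.172), Trim13 (0.175) and Itpk1 (0.184), against 1.07 about its own mean. Bmp7 lay closest to Wnt7b (0.128), a Wnt ligand, then Nepro (0.139) and D930007J09Rik (0.146). For Bmp2 they were Rasd1 (0.234), Tmem74b (0.239) and Cabp2 (0.247). Id2 lay closest to 9230102O04Rik (0.108), Trrap (0.14) and Rnf157 (0.146), and Id4 to Fam109a (0.0883), Lzic (0.0903) and Mapk6 (0.0921).

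Markers of other cells moved with age and treatment. The summed normalized counts of 14 mesenchyme markers were 43452 to 114378 in P1 treated, 87321 to 105522 in P1 untreated, 51743 to 75365 in P4 treated and 87041 to 90295 in P4 untreated libraries. Between untreated ages 3 of the 14 were called, all higher at P1, or 21.4% against 19.9% of all genes. The sums overlapped, but the median log2 fold change of the 14 was 1.08, with 11 above 0 and 3 below. Mean log2 levels were 11.02 to 11.28 in P1 untreated and 9.89 to 10.27 in P4 untreated libraries. By treatment none was called, with median log2 fold changes of −0.98 at P1 and −0.77 at P4. Of 12 supporting cell markers, 3 were called higher and 5 lower in P1 untreated than in P4 untreated libraries, and of 12 hair cell markers 1 and 3. These were 66.7% and 33.3%, against 19.9% of all genes. Supporting cell markers summed to 107232 to 136042 normalized counts in P1 untreated and 160689 to 171108 in P4 untreated libraries, and hair cell markers to 35584 to 53500 and 59001 to 70223. By treatment at P1, 1 of the 12 supporting cell markers was called higher and 1 lower, or 16.7% against 0.353% of all genes. Of 12 immune markers, 11 had a negative log2 fold change by treatment at P1, 9 of them at an unadjusted p under 0.05 by limma. In 8 of the 12 the libraries did not overlap, as in 15.3% of all genes. At P4 all 12 were negative. None was called at either age. Markers of Reissner's membrane, sulcus and interdental cells had mean log2 levels of 7.06 to 11.72 over the libraries. Oc90, of that list, had 187387, 302 and 55610 normalized counts in P1 untreated and 1155, 383 and 9220 in P4 untreated libraries. Endothelial markers summed to 6855 to 9366 in P1 untreated and 3010 to 6139 in P4 untreated libraries. Neuron and glia markers summed to 23137 to 36831 and 25620 to 39173. The part of all these cells in the levels of BMP ligands, Id genes and Smads was not tested.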

How the data were processed

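Tissue prepared as hair and supporting cells of single pups was sequenced (12 libraries described, 11 in the table). Markers of other cells were also present. The score used for each gene is the deposited normalized count: reads from 1 end of each fragment were mapped by the authors (mm10, STAR 2.5.2b), who quantified transcripts with Sailfish, collapsed them with tximport, compared them with DESeq2, and deposited whole numbers scaled per library. The sources used here do not say which of their counts these are. Reads before scaling are therefore not known here, and no counting interval is given. Sums were 41.2 to 44.2 M. The cDNA kit does not mark strand.

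Of 27755 entries, 1 with a repeated ID was left out. Log2(value + 1) was compared with limma 3.58.1 in R 4.3.3 (1 mean per group, eBayes with trend, Benjamini-Hochberg adjustment), over 18400 genes with a mean of at least 10. As the values are rounded scores, a test for raw counts was not used. Fold changes are on the log2(value + 1) scale. P-values measure the spread between single pups. Calls needed an adjusted p below 0.05 and a fold change above 1.25. The script was tested on simulated data. The comparisons share libraries, such as P1 untreated in both the treatment and the age comparison.

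The genes and lists were chosen with earlier results of these data known. The rule named the 10 genes, chosen receptors, Smads, antagonists and partners by their levels, up to 4 called list genes per direction and comparison by adjusted p (otherwise the largest t), and for called genes the 3 most similar patterns. Named after their values were seen were Bmp5, Smad9, Gata2, Hey1, Kcp, Tob1, Dlx3, Txndc5, A330033J07Rik, Lgr5, Dct, Gjb2, Jag1, Sox9, Hey2, Slc1a3, Oc90 and Kcnj10.

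Residuals of same-numbered libraries correlated at 0.115 to 0.136 across the untreated ages and at −0.0605 to 0.026 otherwise. The numbers come from the sample titles, which state no pairing of pups. Libraries with different numbers were not compared in this way, so a pairing is not established and the block was fitted as an alternative only. Alternatives were a pseudocount of 10, no filter, no trend, quantile and median-of-ratios scaling, a replicate block, Xist as covariate, an adjusted p under 0.1, the compared groups alone, and each library left out in turn. RefSeq promoters were searched for exact motif matches.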

Additional observations from a re-analysis of the deposited data

How the results depend on the processing

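No called result reversed its direction under any setting. Of the values of single genes under the alternatives, 1738 kept their side of the thresholds, 96 lost a call and 14 gained one. In treated against untreated libraries at P1, the number of the 10 genes called was 0, and 0 to 1 when each library was left out, and that of the 60 BMP pathway genes 0, with 1 at a pseudocount of 10, 1 at an adjusted p under 0.1 and 0 to 7 when each library was left out. Between untreated ages the pathway count was 16, and 10 to 20 when each library was left out. Between treated ages the 10 genes gave 3 calls, 0 with Xist as covariate and as few as 1 without 1 library; the pathway gave 10, with 6 under no filter, no trend or quantile scaling, 4 with the compared groups alone, 0 with Xist as covariate and as few as 2 without 1 library. The replicate block rests on numbers that are not known to pair pups. Between untreated ages it changed the count of the 10 genes from 6 to 5 (Bmp7 lost) and that of the pathway from 16 to 15. In treated ages it gave 5 of the 10 genes (Id2 and Smad7 added) and 7 pathway genes. For the averaged treatment contrast, chosen after seeing the data, the count of 1 (Bmp7) was 0 under no trend, 0 with the replicate block and 0 to 1 when each library was left out. The cause of these shifts was not tested, except that fewer libraries or groups leave fewer degrees of freedom. In treated comparisons at P4, 2 libraries limit the precision, and leaving out 1 assumes that the other varies like the remaining groups.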
